A study of Mus musculus with 30 samples.

Results

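The insulin-like growth factor (IGF) axis genes in the deposited count table were examined in C2C12 myotubes: the 2 ligands Igf1 and Igf2, the 2 receptors Igf1r and Igf2r, and the 6 binding proteins Igfbp2, Igfbp3, Igfbp4, Igfbp5, Igfbp6 and Igfbp7. The members were taken as a list of named genes. The rule that lists them uses no measured value, but the list was chosen with earlier results of these data known. All 10 were found among the 55487 gene identifiers of the table, and all 10 passed the filter on low counts, which left 15907 genes for testing.

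C2C12 is an immortalized mouse myoblast line that fuses into multinucleated myotubes when serum is lowered. All cells were brought to confluence in high-glucose medium with fetal bovine serum and differentiated for 4 days in low-glucose medium with 2% horse serum, then treated for 4 days, so RNA was taken at 8 days in every group. The 2% HS group stayed in 2% horse serum and is the control, and SD had no serum. MET was serum-deprived with 100 nM metformin, LEU was serum-deprived with 500 nM leucine, and MET+LEU was serum-deprived with both. Each group had 6 libraries of ribosomal RNA-depleted total RNA, and the labels give WT as the genotype throughout. The 5 groups come from a single cell line, and no label says that the replicates were separate cultures, so the p-values measure the spread between these libraries, which may be technical.

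IGF1 and IGF2 are secreted proteins that act on muscle cells mainly through IGF1R, a receptor tyrosine kinase that signals through PI3-kinase and AKT to raise protein synthesis and through the MAP kinase pathway to promote proliferation. IGF2R, the cation-independent mannose phosphate receptor, has no kinase domain and clears IGF2 from the cell surface into lysosomes. The IGF binding proteins hold the ligands outside the cell, where they can block or prolong IGF action, and secreted proteases release the ligands again. Cultured myoblasts make their own IGFs as they differentiate.

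Total counts ran from 12784960 to 19604103 per library. Of the 10 myotube markers looked at, all were measured in every group, among them Myog, the transcription factor myogenin, at 1069.6 ± 61.2 CPM in SD and 1009 ± 62.3 CPM in MET+LEU (SD, n = 6 each). CPM is the count scaled by the TMM library size, which sets libraries on a common scale. Markers of adipocytes and endothelial cells were near 0, with a summed level over 3 genes each of at most 0.268 and 0.77 CPM in any library. Of 3 macrophage markers, Adgre1, the defining surface marker, had no count in any library, and Cd68, a lysosomal protein, was at 2.54 ± 0.432 CPM in 2% HS. The library MET+LEU replicate 6 stood apart, with 5.85% of its counts on nuclear and 7.64% on mitochondrial ribosomal RNA genes, against medians of 1.13% and 0.709% in its group. Mitochondrial ribosomal RNA was also higher across whole groups, at 0.501 to 0.71% of counts in LEU and at 0.649% or more in MET+LEU, against 0.281 to 0.367% in SD, without overlap. In MET it was at 0.244 to 0.705%, overlapping SD in range, but with a median of 0.547%, above the highest SD library. This shift goes with the LEU and MET+LEU comparisons given here and in part with those of MET, and its part in them was not tested. Results in MET+LEU vs. SD are given without replicate 6 where that ended a call or moved a value by over 1.5 times.

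Set against each other per length, as CPM per kb of merged exons, the IGF axis genes spanned more than 2 orders of magnitude. Igfbp5, a binding protein that myoblasts secrete as they differentiate, led in every group, from 684 ± 14.9 CPM per kb in 2% HS to 396 ± 13.7 in MET (SD, n = 6). Igfbp7, a low-affinity member of the family, came next in all 5 groups, from 93.2 ± 4.04 in 2% HS to 160.2 ± 23.1 in MET+LEU. Below these 2 genes lay a middle tier of Igf1, Igf2r, Igfbp4 and Igfbp6, between 15.5 and 37.1 CPM per kb in group means.

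Igf1r followed at about 10 CPM per kb, with group means from 9.68 to 10.4. Igfbp3 was at 6.22 to 8.02, Igf2 at 4.36 to 5.08 and Igfbp2 at 2.58 to 3.05 CPM per kb. Neighbours in this order were separated by their libraries' ranges except within the middle tier: in 2% HS the ranges of Igf2r and Igf1 and those of Igf1 and Igfbp4 overlapped, Igf1 and Igfbp6 overlapped in the 4 serum-deprived groups, and in SD so did Igfbp6 and Igf2r. Without serum, Igfbp6 moved from rank 6 to rank 4 and Igf2r from rank 3 to rank 5 of 10.

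**Figure D1:**
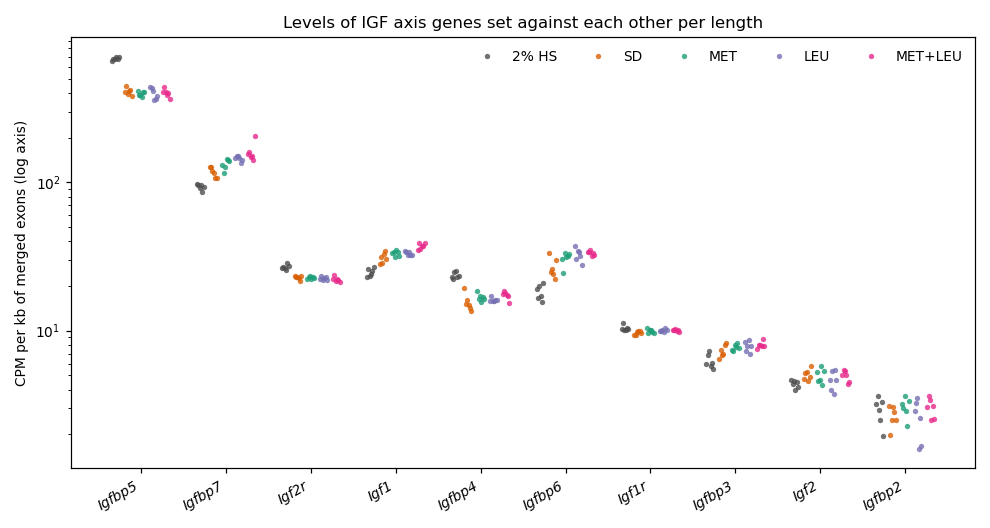
Level of each IGF axis gene in CPM per kb of merged exons (vertical log axis), 1 point per library and 1 colour per group, genes ordered by their 2% HS mean. Igfbp5 sits alone at the top, at 684 CPM per kb in 2% HS, and Igfbp2 at the bottom, at 2.91.

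The level of Igf2 carries a limit of its own. The annotation (GENCODE M21, build GRCm38) places Igf2 at chr7:142650766-142666816 on the minus strand, and 3596 of its 5723 exon bases, 62.8%, are shared on the same strand with a second protein-coding model, Gm49394. Reads on shared bases can be assigned to neither gene by common counting settings, the setting used is not given in the sources used here, and Gm49394 itself had 182 counts over all 30 libraries against 12749 for Igf2. Over the 2127 unshared bases alone, the Igf2 mean would be 11.7 CPM per kb in 2% HS and 13.7 in SD, so its place in the order is uncertain. Igf2os lies on the opposite strand with 98 shared exon bases and Polr2b shares 85 exon bases with Igfbp7 on the opposite strand; for both, reads can be told apart only where strand was used in counting.

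Serum deprivation was compared first (SD vs. 2% HS). The IGF axis shifted in composition: the most abundant binding protein, Igfbp5, and Igfbp4 fell, both receptors fell, and both ligands rose together with Igfbp3, Igfbp6 and Igfbp7. By edgeR's quasi-likelihood test, 9 of the 10 members passed a Benjamini-Hochberg adjusted p of 0.05, where 27.8% of all genes did. There were 5 members higher (13.9% of all genes were higher) and 4 lower (13.9% of all genes were lower). The median absolute log2 fold change was 0.28 over the members and 0.14 over all genes tested. For 7 of the 10 members the SD and 2% HS libraries did not overlap, which held for 13.6% of all genes.

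Igf1 encodes the ligand that drives muscle growth and lies at chr10:87858265-87937042 on the plus strand. In 2% HS its lowest, median and highest library were at 226, 244 and 264 CPM. In SD they were at 279, 306 and 339 CPM, and every SD library lay above every 2% HS library. The log2 fold change was 0.33 (SE 0.042, adjusted p = 1.31e-08 in edgeR), a rise of 25.6%.

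Igf2, the ligand of fetal growth and of myoblast differentiation, had its lowest, median and highest library at 22.9, 25.3 and 26.5 CPM in 2% HS. The same 3 values in SD were 26.2, 28.9 and 33.0 CPM, with 5 of 6 SD libraries above all of 2% HS. The rise was small, at log2 0.22 (SE 0.077, edgeR adjusted p = 0.028), and fell short of the threshold without 2% HS replicate 4 or 6 or SD replicate 3 or 6, where the adjusted p reached 0.0911. With the 182 Gm49394 counts added to the 12749 of Igf2 the call remained. This cannot restore reads on shared bases if they were assigned to neither gene.

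The promoter window of Igf1 is shown since it is the only one of the members' windows that holds the hexamer CAGCTG, a form of the E-box that myogenic factors bind. RefSeq (GRCm38.p6) gives windows from 250 bases before to 50 after a start, and all 10 members matched with 14 windows in all. Each window was searched on both strands. The E-box was taken as CANNTG, so every CAGCTG is also an E-box. For the core promoter box that places the start the letters were TATAAA. The forkhead factors of the FOXO family were represented by TGTTTAC. An insulin response element was searched as CAAAACA. The hexamer CAGCTG was found in 1 of the 14 windows and in 16.3% of all 32851 windows. CANNTG was in 10 of 14 windows against 72.3% of all, TATAAA in 2 against 13.6%, while the FOXO and insulin response letters were in none, against 3.65% and 6.28% of all windows. The letters TATAAA were at -28 from the start in Igfbp4 and, on the opposite strand, at -148 in Igfbp6. A match of letters does not show a working box. The Igf1 window lies at chr10:87860861-87861160 (+ strand), inside the annotated gene, which begins at chr10:87858265. No window searched covers that outermost start. CAGCTG is in capitals.
Igf1: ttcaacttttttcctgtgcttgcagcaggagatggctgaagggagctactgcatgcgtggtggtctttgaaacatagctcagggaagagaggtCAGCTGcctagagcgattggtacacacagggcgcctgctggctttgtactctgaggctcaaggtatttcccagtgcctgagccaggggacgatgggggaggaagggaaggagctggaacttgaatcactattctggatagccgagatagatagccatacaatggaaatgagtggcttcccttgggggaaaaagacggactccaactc

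Both receptors were lower in SD. Igf2r, at chr17:12682406-12769664, had libraries from 239.7 to 267 CPM with a median of 248 in 2% HS, and from 199.9 to 218 with a median of 215 in SD. The 2 groups did not overlap, and the log2 fold change was -0.24 (SE 0.031, edgeR adjusted p = 2.92e-08), a fall to 0.849 of the 2% HS level.

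Igf1r, the signalling receptor at chr7:67952827-68233668, had the smallest change of the 9. Its lowest, median and highest library were at 169.7, 172 and 188 CPM in 2% HS and at 158, 162 and 168 CPM in SD. These ranges did not overlap either, but the change was log2 -0.10 (SE 0.031, edgeR adjusted p = 0.0119). Without 2% HS replicate 2, its highest library, the adjusted p was 0.0511, and with a filter that kept all genes over 5 counts in total it was 0.0577.

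**Figure D2:**
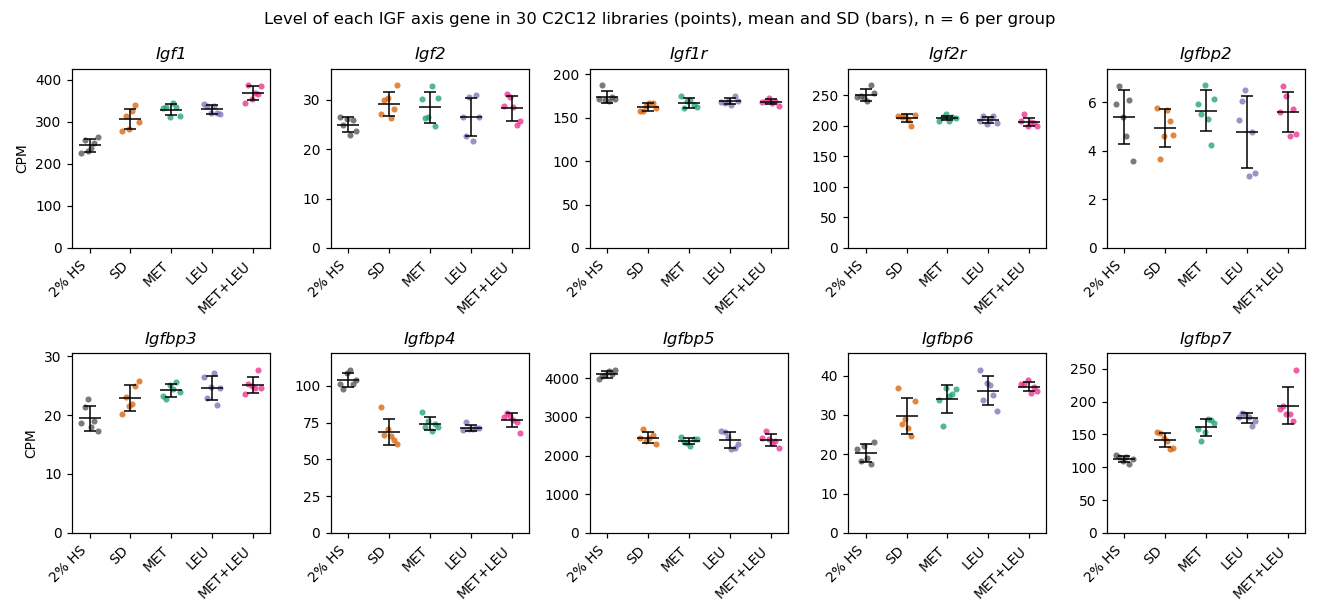
CPM of the 10 IGF axis genes (1 panel each, vertical axis from 0) in the 5 groups; points are the 6 libraries of a group, black bars the mean and SD. Igfbp4 and Igfbp5 drop from 2% HS to all 4 serum-deprived groups, while Igf1 and Igfbp7 step up from 2% HS to SD and from SD to MET+LEU.

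Among the binding proteins, Igfbp5 at chr1:72857932-72874884 changed most. Its 2% HS libraries lay between 3975 and 4219.7 CPM with a median of 4098, and its SD libraries between 2304 and 2684 with a median of 2459, far apart from the controls. The log2 fold change was -0.74 (SE 0.043, edgeR adjusted p = 4.7e-19), a fall to 0.601 of the 2% HS level. Igfbp2, which encodes another IGF carrier, is its neighbour on chromosome 1: it ends 5457 bases from Igfbp5, with the 2 genes transcribed towards each other. It was measured at only 42 to 118 counts per library and had a log2 difference of -0.11 (SE 0.16, edgeR adjusted p = 0.65), with a 95% interval from -0.42 to 0.20, so a change of moderate size was not detectable at this depth.

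Igfbp4 at chr11:99041244-99054392 encodes a binding protein that inhibits IGF action until the protease PAPP-A cleaves it. The lowest, median and highest library were at 98.2, 103 and 111 CPM in 2% HS and at 60.2, 66.3 and 85.3 in SD. No SD library reached the lowest control, and the log2 fold change was -0.60 (SE 0.054, edgeR adjusted p = 2.34e-12). Igfbp4 and Igfbp5, the 2 binding proteins that fell, have the windows shown here from RefSeq GRCm38.p6, at chr11:99040994-99041293 (+ strand) and chr1:72874816-72875115 (- strand). Capitals mark CANNTG and TATAAA on either strand: Igfbp4 holds 1 of each and Igfbp5 a single CANNTG.
Igfbp4: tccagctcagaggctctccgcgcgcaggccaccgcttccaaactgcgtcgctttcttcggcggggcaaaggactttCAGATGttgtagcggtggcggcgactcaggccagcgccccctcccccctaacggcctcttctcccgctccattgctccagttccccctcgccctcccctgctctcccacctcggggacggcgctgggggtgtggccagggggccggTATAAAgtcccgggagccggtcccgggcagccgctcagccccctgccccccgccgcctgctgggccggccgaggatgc
Igfbp5: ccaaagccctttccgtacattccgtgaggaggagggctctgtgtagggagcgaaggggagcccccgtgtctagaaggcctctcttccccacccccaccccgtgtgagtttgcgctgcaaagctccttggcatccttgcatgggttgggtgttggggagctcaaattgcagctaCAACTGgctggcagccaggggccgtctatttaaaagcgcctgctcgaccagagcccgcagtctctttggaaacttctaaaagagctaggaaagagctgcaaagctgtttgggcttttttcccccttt

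The other 3 binding proteins rose. Igfbp6, which prefers IGF2 over IGF1 and lies at chr15:102144362-102149511, went from 17.4, 20.1 and 23.2 CPM (lowest, median and highest library of 2% HS) to 24.7, 28.2 and 36.8 in SD. The groups did not overlap, and the log2 fold change was 0.56 (SE 0.086, edgeR adjusted p = 2.6e-06). Igfbp7 at chr5:77349240-77408041 went from 105, 114 and 118 CPM to 129, 142 and 154 CPM, again without overlap.

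The Igfbp7 fold change was 0.33 on the log2 scale (SE 0.068, edgeR adjusted p = 0.000371). Igfbp3, the main carrier of IGFs in blood, at chr11:7206086-7213923, had libraries of 17.3 to 22.7 CPM in 2% HS and of 20.2 to 25.7 CPM in SD. These ranges overlapped, with 3 of 6 SD libraries above all of 2% HS, and its log2 fold change of 0.23 (SE 0.068) had an edgeR adjusted p of 0.00796.

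Summed over the 6 binding protein genes, the level per length was 828 ± 14.5 CPM per kb in 2% HS and 579.8 in SD, with libraries from 811 to 847 and from 545 to 623. Without Igfbp5 the sum was 144 ± 4.96 in 2% HS and 169 ± 12.4 in SD, the opposite direction. The share of Igfbp5 in the sum was 82.6% ± 0.659 in 2% HS and 70.8% ± 1.7 in SD, and the share of Igfbp7 was 11.3% ± 0.539 and 20.2% ± 1.02. Divided by the Igf1 level of the same library, the summed binding protein level was 33.7 ± 1.92 in 2% HS and 18.8 ± 1.69 in SD. These sums were not tested.

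**Figure D3:**
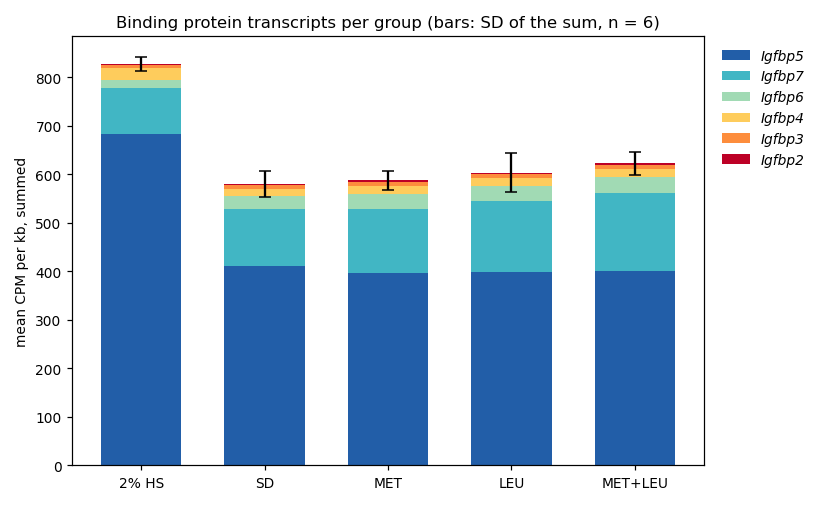
Mean level of the 6 binding protein genes in CPM per kb of merged exons, stacked per group (n = 6); the error bar is the SD of the sum. The Igfbp5 block shrinks from 684 CPM per kb in 2% HS to 411 in SD and stays between 396 and 411 in the serum-deprived groups, while the Igfbp7 block grows from 93.2 in 2% HS to 160.2 in MET+LEU.

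Markers of other cell states moved along with these changes, in a comparison where 27.8% of all genes passed the threshold (13.9% higher and 13.9% lower). All 7 fibroblast markers measured were higher in SD, and their summed level ran from 3973 to 4387 CPM in 2% HS and from 6778 to 7189.9 CPM in SD, with Dpt, a matrix protein of connective tissue, at log2 3.05 (SE 0.065, edgeR adjusted p = 2.94e-36), Lum, a collagen-binding proteoglycan, at log2 2.10 (SE 0.26, adjusted p = 8.09e-09) and Col3a1, a fibrillar collagen chain, at log2 0.83 (SE 0.033, adjusted p = 1.48e-25). Of 10 myotube markers, 3 were lower (Ckm, Mymx and Ttn), Des was higher and 6 did not pass. The summed level ran from 39009.8 to 41965 CPM in 2% HS and from 32251 to 34720 CPM in SD. Most of this sum was Ttn, at 30972 CPM in 2% HS and 24592 CPM in SD on average, so the sum mainly follows that gene and not the list. Ckm, the muscle creatine kinase, was at log2 -0.98 (SE 0.085, edgeR adjusted p = 6.25e-10), Mymx, a fusion peptide, at -0.39 (SE 0.064, adjusted p = 4.41e-06) and the giant sarcomere protein gene Ttn at -0.33 (SE 0.053, adjusted p = 7.54e-06). Of 4 reserve myoblast markers, Cd34 was higher at log2 0.43 (SE 0.067, edgeR adjusted p = 1.04e-06) and Pax7 was lower at -0.37 (SE 0.039, adjusted p = 1.25e-10). All libraries come from the C2C12 line, so these lists do not show that other cell types were present. The part of these marker changes in the IGF axis results was not tested. In bulk libraries fewer cells in a state and less RNA per cell cannot be told apart.

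Of 12 listed secreted partners and proteases of the binding proteins, 7 could be tested, and 4 were higher and 1 lower in SD, where 13.9% of all genes were higher and 13.9% lower, with a median log2 fold change of 0.20 against 0.00 over all genes. Htra1, a secreted serine protease that cleaves binding proteins, rose from 83.7 ± 4.26 to 163 ± 9.48 CPM (SD, n = 6), a log2 fold change of 0.97 (SE 0.040, edgeR adjusted p = 1.02e-24). Stc1, a secreted inhibitor of PAPP-A, rose from 3.38 ± 0.428 to 8.9 ± 1.79 CPM, at log2 1.38 (SE 0.13, edgeR adjusted p = 5.23e-12). Pappa itself, the PAPP-A gene, fell from 9.31 ± 0.793 to 4.32 ± 0.939 CPM, at log2 -1.11 (SE 0.13, edgeR adjusted p = 1.52e-09). Igfbp1 had no count in any library, and Igfals, the third subunit of the circulating IGF complex, had 37 counts in all.

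Of 30 genes that carry the signal from the receptor, 28 could be tested, with 7 higher and 6 lower in SD, where 27.8% of all genes passed, and a median log2 fold change of 0.02. The largest changes past the threshold were Trib3, a pseudokinase that binds AKT, at log2 -1.25 (SE 0.23, edgeR adjusted p = 0.000105), Grb14, an adaptor that inhibits the insulin receptor, at 0.65 (SE 0.11, adjusted p = 3.72e-06), and the adaptor Sh2b2 at -0.29 (SE 0.071, adjusted p = 0.00141). The 2 genes not tested, Insrr and Irs4, had no counts. Of 12 listed regulators of Igf2 and of the loci around the imprinted members, 6 could be tested. Against 27.8% of all genes passing, 1 was higher and 4 were lower. These were led by Lin28a at log2 -1.20 (SE 0.40, edgeR adjusted p = 0.0208), which had 2 to 26 counts per library, Plagl1 at -0.71 (SE 0.16, adjusted p = 0.000371) and Hmga2 at 0.57 (SE 0.11, adjusted p = 6.6e-05). Lin28a encodes an RNA-binding protein, Plagl1 a transcription factor of imprinted growth genes and Hmga2 a chromatin protein.

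Metformin and leucine were then added to the serum-free medium, alone and together. The 3 treated groups were each compared with the same 6 SD libraries, so their differences share those controls. With metformin alone (MET vs. SD), none of the 10 members passed the threshold in edgeR, where 0.157% of all genes did. At an unadjusted p under 0.05 in edgeR were 4 of the 10 members and 1597 of all 15907 genes. DESeq2 called 0 members and limma-voom 1, Igfbp7. The values for the members with the lowest p were Igfbp7 at log2 0.18 (SE 0.067, edgeR adjusted p = 0.331) and Igf1 at 0.10 (SE 0.042, adjusted p = 0.39). Without MET+LEU replicate 6 in the fit, Igfbp7 passed in edgeR (adjusted p = 0.0283). The share of all genes called was then 0.996%, and with limma-voom it was 0.679%.

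With leucine alone (LEU vs. SD), 1 of 10 members was higher, Igfbp7, where 0.553% of all genes passed the threshold. Its LEU libraries had 164, 177 and 183 CPM as lowest, median and highest, and the SD libraries 129, 142 and 154, so the groups did not overlap, which held for 1.31% of all genes. The log2 fold change was 0.31 (SE 0.067, edgeR adjusted p = 0.0274), and leaving out SD replicate 4, 5 or 6 or LEU replicate 2, 3 or 4 took the adjusted p to as much as 0.0659. Igfbp6 was at log2 0.28 (SE 0.081, edgeR adjusted p = 0.12) and passed in DESeq2 (adjusted p = 0.0416), in limma-voom (adjusted p = 0.0229) and without SD replicate 1 (adjusted p = 0.0104). The cycling markers Ccnb1 and Top2a and the collagen gene Col1a1 were lower in LEU as well, with the cycling list's summed level at 113 to 146 CPM against 139 to 202 CPM in SD; their part in the Igfbp7 value was not tested.

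With both agents (MET+LEU vs. SD), Igf1, Igfbp4, Igfbp6 and Igfbp7 rose: 4 of 10 members passed the threshold, where 18.4% of all genes did, and all 4 were higher, where 10.6% of all genes were higher. The median log2 fold change was 0.15 over the members and -0.01 over all genes. The groups did not overlap for 2 members, Igf1 and Igfbp7, and for 5.34% of all genes.

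The Igf1 libraries of MET+LEU had a lowest, median and highest level of 344, 368 and 388 CPM, all above the highest SD library at 339 CPM. The log2 fold change was 0.26 (SE 0.042, edgeR adjusted p = 1.37e-05). Igf1 thus rose in SD and rose further in MET+LEU, and was 50.7% higher in MET+LEU than in 2% HS.

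Igfbp7 had 170.4, 185 and 249 CPM as lowest, median and highest MET+LEU library. All lay above SD, and the log2 fold change was 0.45 (SE 0.067, edgeR adjusted p = 2.42e-05). The highest value belongs to replicate 6, the library rich in ribosomal RNA, and without it the log2 fold change was 0.36 (edgeR adjusted p = 3.78e-07). Its promoter window, at chr5:77407996-77408295 (- strand) in GRCm38.p6, is shown as that of the member that rose most in MET+LEU; it held none of the motifs searched and so has no capitals.
Igfbp7: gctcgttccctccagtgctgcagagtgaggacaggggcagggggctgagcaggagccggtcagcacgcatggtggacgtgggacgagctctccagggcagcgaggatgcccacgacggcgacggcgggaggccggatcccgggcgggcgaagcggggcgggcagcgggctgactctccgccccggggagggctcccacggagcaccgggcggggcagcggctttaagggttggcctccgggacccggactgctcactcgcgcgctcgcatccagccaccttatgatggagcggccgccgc

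Igfbp6 had 35.6, 37.4 and 38.9 CPM as lowest, median and highest MET+LEU library, 4 of them above all SD libraries. The log2 fold change was 0.32 (SE 0.081, edgeR adjusted p = 0.00455). Igfbp4 had 68.0, 77.9 and 81.8 CPM in MET+LEU, within the SD range of 60.2 to 85.3 CPM. The top of that range was SD replicate 1, and the other SD libraries lay at 60.2 to 70.7 CPM. The Igfbp4 rise of log2 0.16 (SE 0.055, edgeR adjusted p = 0.0372) went against its fall in SD. Over the 30 fits that left out 1 library, the edgeR adjusted p ran from 0.000705 to 0.134, and the call was lost in 19. It was also lost in the fit of these 2 groups alone (adjusted p = 0.138) and with a filter that kept all genes over 5 counts in total (adjusted p = 0.0596). Without MET+LEU replicate 6 the rise was log2 0.18 (edgeR adjusted p = 0.0125).

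The other 6 members did not pass the threshold in MET+LEU vs. SD. Igfbp5, which had fallen most in SD, was at log2 -0.04 (SE 0.043, edgeR adjusted p = 0.615), with a 95% interval from -0.12 to 0.05. Igf2r was at -0.04 with an interval from -0.10 to 0.02, and Igf1r at 0.05 with an interval from -0.01 to 0.12. Igf2 was at -0.04 (interval -0.19 to 0.11), Igfbp3 at 0.14 (interval 0.01 to 0.27, edgeR adjusted p = 0.144) and Igfbp2 at 0.18 (interval -0.13 to 0.49). Without MET+LEU replicate 6, Igfbp5 and Igf2 were both at log2 -0.0168 (edgeR adjusted p = 0.838 and 0.92).

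**Figure D4:**
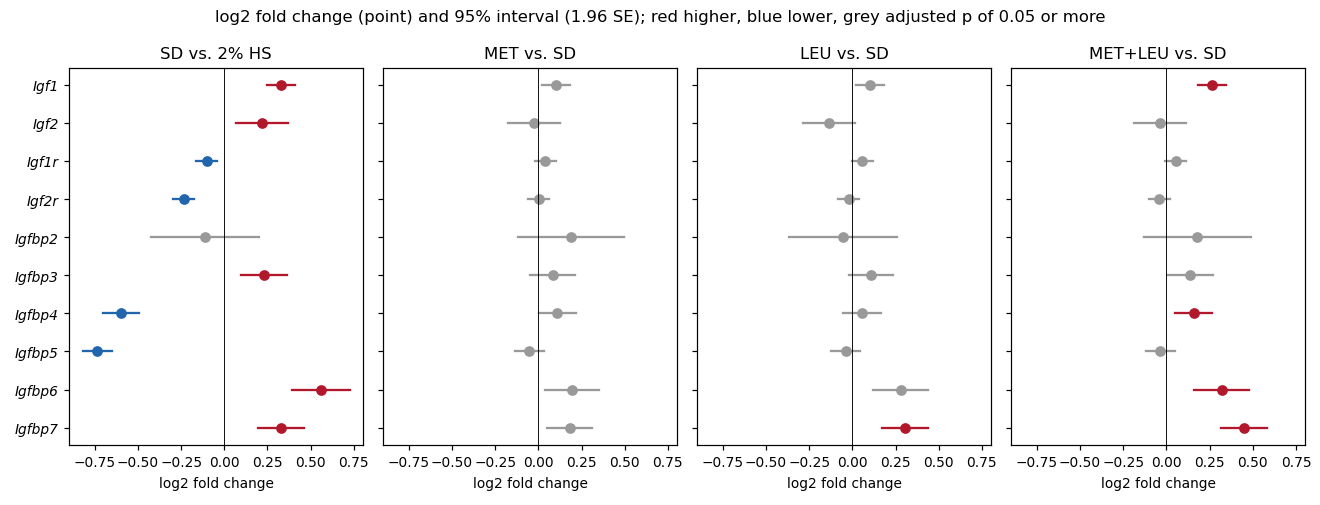
log2 fold change of each IGF axis gene (points) with its 95% interval (lines) in 4 comparisons, on 1 shared horizontal scale; red and blue mark higher and lower genes past an adjusted p of 0.05, grey the rest. Igfbp5 is at -0.74 in SD vs. 2% HS and near 0 in the 3 treatment panels, and Igfbp7 lies to the right of 0 in all 4.

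For the markers in MET+LEU vs. SD, the share of all genes past the threshold in either direction was 18.4%. All 4 cycling cell markers were lower in MET+LEU, led by Ccnb1 at log2 -0.89 (SE 0.11, edgeR adjusted p = 7.68e-08), Top2a at -0.64 (SE 0.076, adjusted p = 6.34e-07) and Cdk1 at -0.61 (SE 0.099, adjusted p = 2.11e-05), with a summed level of 106 to 135 CPM against 139 to 202 CPM in SD. Of the myotube markers, Tnnt3, a fast troponin, was at log2 0.82 (SE 0.11, edgeR adjusted p = 1.08e-05), and the developmental myosins Myh8 and Myh3 were at 0.38 (SE 0.071, adjusted p = 0.000417) and 0.36 (SE 0.087, adjusted p = 0.00479), while Mymx was lower. Without MET+LEU replicate 6 these 3 rises were smaller, at 0.64 for Tnnt3, 0.27 for Myh8 and 0.21 for Myh3 (edgeR adjusted p = 1.01e-08, 7.89e-07 and 0.00019). Fibroblast markers went both ways, with Dcn at log2 0.48 (SE 0.10, edgeR adjusted p = 0.00111) and Col3a1 higher, and Col1a1 at -0.35 (SE 0.048, adjusted p = 2.14e-06) and Col1a2 at -0.13 (SE 0.032, adjusted p = 0.00424) lower. None of the 4 reserve myoblast markers passed the threshold. The part of these marker changes in the rise of the 4 IGF axis genes was not tested.

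Of the 7 tested partners and proteases, 3 were higher and 1, Adam12, was lower in MET+LEU vs. SD, where 18.4% of all genes passed. Pappa2, a homologue of PAPP-A that cleaves Igfbp3 and Igfbp5 proteins, went from 2.41 ± 0.496 CPM in SD to 3.51 ± 0.433 CPM in MET+LEU (SD, n = 6), at log2 0.54 (SE 0.15, edgeR adjusted p = 0.007). Htra1 and the serine protease gene Prss23 were each at log2 0.13 (adjusted p = 0.0121 and 0.0122 in edgeR). Of 28 signal transduction genes, 2 were higher and 3 lower, where 18.4% of all genes passed, with the largest values for Trib3 at log2 -0.73 (SE 0.26, edgeR adjusted p = 0.0488), Pik3r1, a regulatory subunit of PI3-kinase, at 0.15 (SE 0.036, adjusted p = 0.00296) and Inppl1, a lipid phosphatase that opposes PI3-kinase, at -0.13 (SE 0.041, adjusted p = 0.021). Without MET+LEU replicate 6, 1 was higher and 1 lower, where 13.5% of all genes passed. Trib3 (edgeR adjusted p = 0.12) and Inppl1 (adjusted p = 0.0649) then did not pass.

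Of the 6 tested regulators of Igf2 and the imprinted loci, 1 was higher and 1 lower in MET+LEU vs. SD, where 18.4% of all genes passed. H19, the noncoding RNA made beside Igf2 from the other parental chromosome, was at 4662 to 5596 CPM in SD and 5329 to 7197 CPM in MET+LEU. Its log2 fold change was 0.25 (SE 0.051, edgeR adjusted p = 0.000543), while Igf2 did not pass the threshold. Airn, the antisense RNA over Igf2r that shares no exon base with it, was lower at log2 -0.35 (SE 0.11, edgeR adjusted p = 0.025), while Igf2r did not pass the threshold in the same comparison.

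Measured against the serum-fed control (MET+LEU vs. 2% HS, which shares libraries with the comparisons above), 7 of 10 members passed the threshold, where 42.3% of all genes did. Igf1, Igfbp3, Igfbp6 and Igfbp7 were higher (4 members, where 22.1% of all genes were higher), and Igf2r, Igfbp4 and Igfbp5 were lower (3 members, where 20.3% of all genes were lower). Igfbp6 was at log2 0.88 (SE 0.084, edgeR adjusted p = 8.32e-11), Igfbp7 at 0.78 (SE 0.068, adjusted p = 1.08e-10) and Igf1 at 0.59 (SE 0.042, adjusted p = 2.71e-16). Igfbp3 was at 0.37 (SE 0.067, adjusted p = 1.53e-05 in edgeR), Igf2r at -0.28 (SE 0.031, adjusted p = 3.63e-10), Igfbp4 at -0.44 (SE 0.054, adjusted p = 5.68e-09) and Igfbp5 at -0.77 (SE 0.043, adjusted p = 6.01e-20). Igf2 was at 0.18 (SE 0.077, edgeR adjusted p = 0.0521), and passed without MET+LEU replicate 6 (adjusted p = 0.0403), among other settings.

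The combination was also set against each agent alone, in comparisons that share the MET+LEU libraries. Against MET, 2 of 10 members were higher, where 8.69% of all genes passed the threshold: Igf1 at log2 0.16 (SE 0.041, edgeR adjusted p = 0.00954) and Igfbp7 at 0.27 (SE 0.067, adjusted p = 0.0115). Without MET+LEU replicate 6 the Igfbp7 value was 0.18 (edgeR adjusted p = 0.0169) and that of Igf1 0.14 (adjusted p = 0.0351), and with only these 2 groups in the fit Igfbp7 did not pass (adjusted p = 0.086).

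Against LEU, 1 of 10 members was higher, Igf1, where 6.28% of all genes passed the threshold. Its LEU libraries lay between 319 and 342 CPM and its MET+LEU libraries between 344 and 388 CPM, without overlap, as for 3.60% of all genes. The log2 fold change was 0.16 (SE 0.041, edgeR adjusted p = 0.0169), and leaving out LEU replicate 3 or 5 or MET+LEU replicate 2 or 6 took the adjusted p to as much as 0.0709. The interaction of MET and LEU, which asks whether the combination differs from the sum of both agents on the log scale, was past the threshold for none of the 10 members in edgeR, where 0.0503% of all genes passed. No member was at an unadjusted p under 0.05 there in edgeR, where 1389 of all 15907 genes were. DESeq2 and limma-voom called 0 members too, and Igf1 was at 0.06 (SE 0.059, edgeR adjusted p = 0.836).

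The genes whose log2 CPM followed each member most closely over the 30 libraries were looked up by Pearson's r, as a description, since libraries of a group share their treatment. For Igfbp5 they were Adam19 (r = 0.985), Amotl1 (0.977) and Gpt2 (0.975), with values of 0.73, 0.546 and 0.629 once group means were removed. For Igf1 they were Omd (0.94), Gprin3 (0.932) and Lpl (0.931), with 0.586, 0.631 and 0.401 within groups. For Igfbp4 they were Glul (0.948), Bmp6 (0.939) and Lamb1 (0.931), with 0.684, 0.698 and 0.651 within groups. Igfbp6 was closest to Ccdc102a (0.919), Gpx8 (0.909) and Apoe (0.908), with 0.469, 0.546 and 0.349 within groups. Igf2 was closest to Them6 (0.70), Tm7sf2 (0.663) and Tent4a (0.651), with 0.665, 0.558 and 0.513 within groups.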

How the data were processed

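RNA-sequencing of 30 C2C12 libraries (5 groups of 6) was deposited as 1 table of raw gene counts. The authors prepared stranded, ribosomal RNA-depleted total RNA libraries and, per the submitters' processing notes, the tools named are cutadapt 1.16, STAR 2.7.6a, featureCounts 1.6.3 and DESeq2 1.30.1 with build GRCm38. The strand setting, the annotation release and the treatment of reads on shared exons are not given in the sources used here. The deposited counts were used as they are.

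Symbols, positions and exon lengths came from GENCODE M21 (GRCm38). Of 55487 identifiers 55227 matched, and the other 260 held 0.0043% of counts. Groups were taken from the sample labels, which give no batch or date to check within. Genes were filtered with filterByExpr (minimum count 10, minimum total 15), scaled by TMM and fitted with edgeR 4.0.16 (R 4.3.3; robust glmQLFit, group means over all 30 libraries). Contrasts were tested with glmQLFTest, with Benjamini-Hochberg adjustment over 15907 genes and a threshold of 0.05. log2 CPM used a prior count of 2. Intervals are 95% and cover the fitted standard error only. Code for the test was tried on simulated counts. DESeq2 1.42.0, limma 3.58.1 (voom), other scalings and filters and the omission of each library were alternatives.

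The members and the lists of related genes and markers were chosen with earlier results of these data known. All 10 members are described, and each list is given as counts with the 3 genes of largest change past the threshold, for serum deprivation and for the combination against SD. A few other genes (Myog, Des, Adam12, Mymx, Col3a1, Adgre1, Cd68, Igfbp1, Igfals, Insrr and Irs4) were named after their values were seen. For both ligands and the 3 members with the largest change in SD vs. 2% HS, the 3 most alike genes are named.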

Additional observations from a re-analysis of the deposited data

Results flagged for a closer look

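In 4 of 50 groups of 6 libraries (10 members in 5 groups), 1 library lay apart from the other 5 by Dixon's gap ratio on log2 CPM; chance alone gives about 1 in 20. Igfbp7 in MET+LEU had its highest library, replicate 6, at 249 CPM against 170.4 to 194 in the others (gap ratio 0.661), and this library also held the most ribosomal RNA counts, whose part in the value was not tested. Igf1r in 2% HS had replicate 2 at 188 CPM against 169.7 to 174 (gap ratio 0.745). Igfbp4 in LEU had replicate 2 at 75.6 CPM against 70.2 to 71.3 (gap ratio 0.79). Igfbp6 in MET had its lowest library, replicate 2, at 27.3 CPM against 33.8 to 37.0 (gap ratio 0.705).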

How the results depend on the processing

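Over 9 alternative settings and 30 fits that each left out 1 library, plus a setting chosen after seeing the data that added the Gm49394 counts to Igf2, 3013 of 3128 values of single members kept their direction and their side of the threshold, 38 lost a call, 11 gained one and 66 changed sign. The number of members called stayed at 8 or 9 in SD vs. 2% HS, at 3 or 4 in MET+LEU vs. SD and at 7 or 8 in MET+LEU vs. 2% HS. It was 1 in MET vs. SD with limma-voom, 2 in LEU vs. SD with the DESeq2 Wald test, limma-voom and the replicate block, and 1 in MET+LEU vs. MET with only the groups compared. Leaving out single libraries gave 0 to 1 in MET vs. SD, 0 to 2 in LEU vs. SD and 0 to 1 in MET+LEU vs. LEU. The cause was not tested.

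All genes called ranged over the 9 settings from 4125 to 4565 in SD vs. 2% HS (4424 as reported) and from 6081 to 6862 in MET+LEU vs. 2% HS (6734). Fits without 1 library gave 3930 to 4873 in SD vs. 2% HS, 6343 to 6873 in MET+LEU vs. 2% HS and 2175 to 3159 in MET+LEU vs. SD. The 9 settings gave 26 to 120 in MET vs. SD (25), 78 to 216 in LEU vs. SD (88) and 1422 to 3191 in MET+LEU vs. SD (2931). They gave 589 to 1622 in MET+LEU vs. MET (1382), 311 to 1235 in MET+LEU vs. LEU (999) and 1 to 28 for the interaction (8). Leaving out 1 library took these counts to as few as 4 (without MET replicate 4) and as many as 160 (without MET+LEU replicate 6) in MET vs. SD, from 43 (without LEU replicate 4) to 269 (without MET+LEU replicate 6) in LEU vs. SD, down to 726 (without MET+LEU replicate 6) in MET+LEU vs. MET, down to 396 (without LEU replicate 3) in MET+LEU vs. LEU and down to 1 (without SD replicate 4) for the interaction. Leaving MET+LEU replicate 6 out of the counts of listed genes was chosen after seeing the data.

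The values that changed sign were near 0 and were not called. They were Igf2r in MET vs. SD with at least 10 counts required in every library (-9.93e-05), Igf1r in MET+LEU vs. MET with upper-quartile scaling (-0.00216), Igf1r in MET+LEU vs. LEU with limma-voom (0.000699), and Igfbp5 in MET+LEU vs. LEU with DESeq2 size factors (-0.00512), upper-quartile scaling (-0.0163), the DESeq2 Wald test (-0.0051), more than 5 counts in total required (-0.0026), at least 10 in every library (-0.00297) and only the groups compared (-0.00828). Leaving out single libraries gave ranges across 0 for Igf2 in MET vs. SD (-0.0704 to 0.0165) and MET+LEU vs. MET (-0.0591 to 0.0347), Igf2r in MET vs. SD (-0.0117 to 0.013), Igf1r in MET+LEU vs. MET (-0.00651 to 0.0182), Igfbp3 in MET+LEU vs. LEU (-0.013 to 0.0504), Igfbp4 in the interaction (-0.0952 to 0.0127), Igfbp5 in MET+LEU vs. MET (-0.0191 to 0.0336) and vs. LEU (-0.0335 to 0.0225), Igfbp6 in MET+LEU vs. LEU (-0.00198 to 0.0741), and Igfbp2 in LEU vs. SD (-0.158 to 0.0522), MET+LEU vs. 2% HS (-0.0318 to 0.124), MET+LEU vs. MET (-0.0894 to 0.0333) and the interaction (-0.069 to 0.137).

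Deviations of libraries with the same replicate number had a mean r of 0.0245 over 60 pairs (from -0.181 to 0.35), against -0.00475 for other numbers. Of 30 libraries, 9 were closest to their own number out of 6, and no label says that a number marks a shared batch. With the replicate number as a block in the fit, Igfbp6 in LEU vs. SD passed at log2 0.285 (edgeR adjusted p = 0.0349). Lengths from the longest transcript exchanged the ranks of Igf1 and Igf2r in 2% HS and left 10 of 10 ranks in the other 4 groups. Low counts limit Igfbp2 most, and shared exons limit Igf2.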
